A study of Rattus norvegicus with 3 samples.

Results

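The genes described here encode the voltage-gated sodium channels, the voltage-gated calcium channels and the hyperpolarization-activated HCN channels, together with their auxiliary subunits, in rat retina. They were chosen by name, with earlier results of these data known. The rule took every symbol that begins with Scn and a digit, with Cacna, Cacnb or Cacng, or is Hcn and a single digit. The rule found 44 of the 32883 genes in the files. Of these, 24 encode pore subunits (10 sodium, 10 calcium, 4 HCN) and 20 encode auxiliary subunits (4 sodium, 16 calcium).

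The study sequenced ribosome-depleted retinal RNA of Sprague-Dawley rats at postnatal day 60, with 1 library in each of 3 groups. In HIOP_GSK, a drug named only as GSK had been injected into the anterior chamber 24 h before ischemia. In HIOP_GSK and HIOP alike, the pressure in the eye was held at 110 mmHg for 60 min through a saline-filled needle, under chloral hydrate and with a drop of chloramphenicol on the eye, and retina was taken 12 h later. CTL is labelled as having had no treatment, although the protocol also has sham eyes, in which a needle was placed at a pressure of 2.66 kPa. Which description holds for CTL was not settled. The labels name no vehicle-injected eyes and give no number of animals per library. The libraries held 15132754 counts in HIOP_GSK, 17221510 in HIOP and 16090064 in CTL. No group has a second library, so no difference could be checked against replicates and none was tested. Ratios are of counts scaled to library size and carry a 95% exact interval that covers counting error only. Levels of different genes are compared in TPM, which corrects for transcript length.

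A voltage-gated sodium or calcium channel has a large pore subunit that also senses voltage, and smaller auxiliary subunits that set its gating and carry it to the membrane. HCN channels are tetramers of pore subunits that open on hyperpolarization. In the retina, sodium channels drive the spikes of ganglion cells and some amacrine cells, the L-type channel Cav1.4 drives glutamate release at photoreceptor ribbon synapses, and HCN channels shape the light response of photoreceptors. Most proteins named calcium channel gamma subunits are TARPs, which serve as auxiliary subunits of AMPA-type glutamate receptors.

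Of the 44 genes, 40 reached a CPM (scaled counts per 1000000) of 1 in at least 1 library and all 40 of these did so in CTL. Another 4 did not. Cacng1, a gamma subunit of skeletal muscle calcium channels, had no count in any library, Cacng6 had 4 counts in HIOP_GSK, 2 in HIOP and 3 in CTL, Scn10a had 1, 0 and 1 in the same order, and Scn11a had 4, 7 and 6. The last pair encode sodium channels best known from pain-sensing neurons. A count of 0 allows up to 3 counts, or 0.197 CPM in HIOP_GSK, 0.175 in HIOP and 0.186 in CTL.

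All 8 rod markers had counts in every library, in keeping with the label of retina. Marker lists of several cell types differed between the libraries. The summed level of 10 ganglion cell markers was 295.9 CPM in HIOP_GSK, 271.6 in HIOP and 601.2 in CTL, and that of 8 amacrine cell markers was 771.4, 685.3 and 1307. Bipolar cell markers summed to 1229, 1345 and 1936 CPM, and 8 rod markers to 18580, 26260 and 27160. Cone markers summed to 125.4 CPM in HIOP_GSK, 152.9 in HIOP and 467.9 in CTL, and markers of the lens to 8288, 2154 and 753.3. Apart from the bipolar marker Otx2 in HIOP_GSK, no marker of the lists so far was at 0. Müller glia markers summed to 2274, 1954 and 4043 CPM. Cornea markers summed to 49.29, 11.8 and 261.8 CPM, with Kera at 0 in HIOP. Myeloid markers summed to 165, 123.5 and 31.06 CPM, with S100a8 at 0 in CTL. The myeloid markers did not move together in HIOP. Their median log2 ratio over CTL was -0.11, with 3 of 7 past 2-fold upward and 2 past it downward. The 3 were S100a8 (405 counts in HIOP, 0 in CTL), S100a9 (984 and 4) and Ptprc (420 and 42). In HIOP_GSK over CTL the myeloid median was 1.45. In bulk retina, fewer cells of a type and less RNA per cell cannot be told apart, and the part of these shifts in the channel results was not tested.

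In the ischemic retina without the drug, channel genes were lower as a group and none was 2-fold higher. Of the 40 compared, 38 had a ratio below 1 in HIOP over CTL, the median log2 ratio was -0.78 and the range ran from -1.74 for Scn4a to 0.08 for Cacna2d1. The median over all 15543 genes compared was 0.00, and 49.6% of them had a ratio below 1. The counting interval lay wholly below 1 for 36 of the 40 channel genes, against 31.9% of all genes, and the exceptions were Hcn4, Cacna1i, Cacna2d1 and Cacnb1. Of the 40, 10 were at least 2-fold lower, where 8.04% of all genes were, and 0 of 40 were at least 2-fold higher, where 9% of all genes were. Together the 44 genes took 2422 CPM in HIOP_GSK, 2632 in HIOP and 3877 in CTL. The plot of ratios by gene shows this as a column of points left of 0, with most between 0 and the 2-fold limit.

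**Figure D1:**
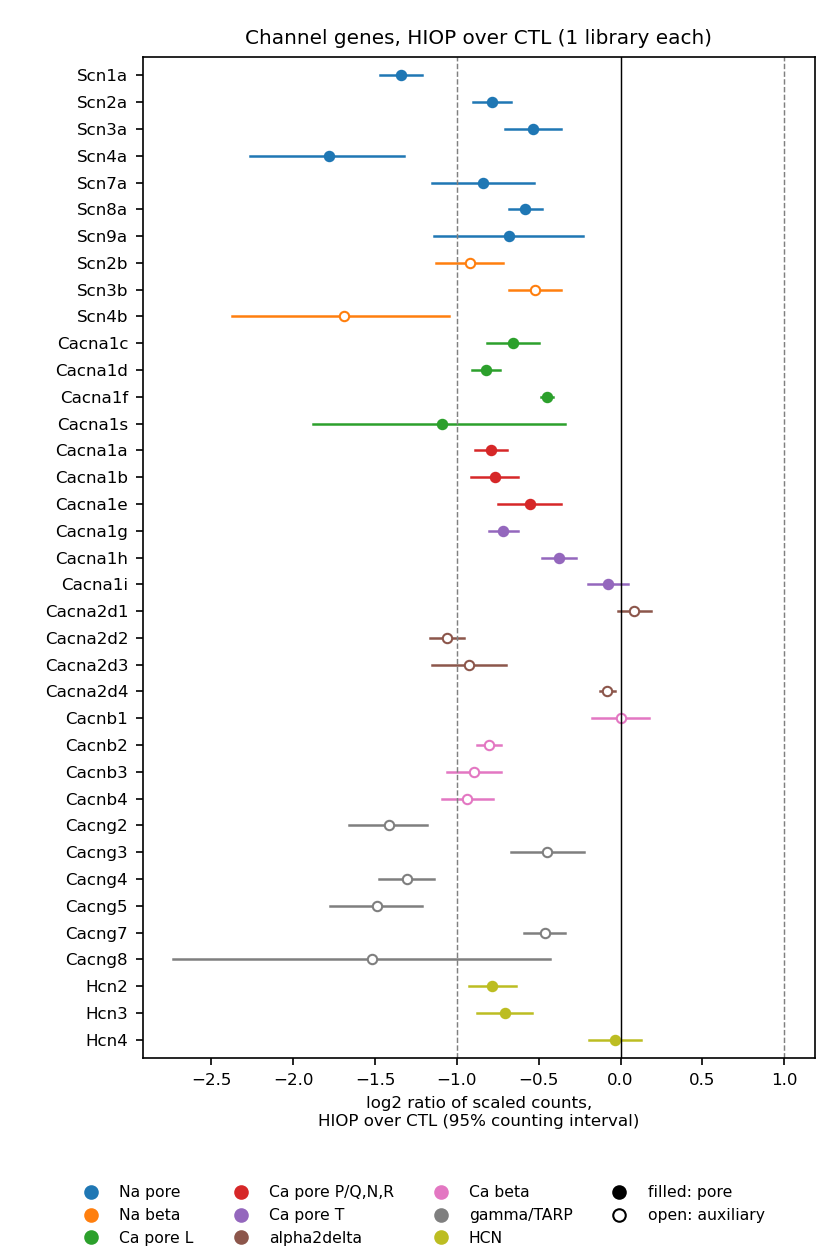
Ratio of scaled counts in HIOP over CTL for 37 of the 40 channel genes compared, on a log2 axis, with the 95% counting interval as a line (filled points, pore subunits; open points, auxiliary subunits; dashed lines, 2-fold). All 10 sodium channel points shown lie below 0, while Cacna2d1, Cacna2d4, Cacnb1, Cacna1i and Hcn4 lie near 0.

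Among the sodium channel pore genes, Scn8a, which encodes Nav1.6 of axon initial segments and nodes, was the most abundant per length. Its level was 11.69 TPM in HIOP_GSK, 11.13 in HIOP and 18.72 in CTL. It had 1245 counts in HIOP_GSK, 1390 in HIOP and 1957 in CTL and was 1.5-fold lower in HIOP than in CTL (1.4 to 1.6). Both ischemic libraries were thus lower than CTL and close to each other.

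Scn1a, which encodes Nav1.1, was lower relative to Scn8a and Scn2a in the ischemic libraries than in CTL. It had 796 counts in HIOP_GSK, 722 in HIOP and 1720 in CTL, and was 2.53-fold lower in HIOP than in CTL (2.32 to 2.77), past the 2-fold limit. The count of Scn1a relative to Scn8a was 0.639 in HIOP_GSK (0.584 to 0.699), 0.519 in HIOP (0.474 to 0.569) and 0.879 in CTL (0.823 to 0.938). In CTL, Scn1a stood second among the pore genes in TPM, above Scn2a at 12.77 TPM. In both ischemic libraries it stood below Scn2a, which was at 8.10 TPM in HIOP_GSK and 7.19 in HIOP. Scn1a took 17.6% of the summed TPM of the sodium pore genes in HIOP_GSK, 16.6% in HIOP and 24% in CTL, as the plot of group make-up shows.

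The other neuronal pore genes were lower within the 2-fold limit. Scn2a, encoding Nav1.2, had a log2 ratio of -0.78 in HIOP over CTL, and Scn3a, encoding Nav1.3 and best known from the developing brain, had one of -0.53. Scn7a, which encodes the sodium-sensing channel Nax, and Scn9a, encoding Nav1.7, were below 3 TPM in every library, with log2 ratios of -0.83 and -0.66.

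A pore gene best known from muscle was also lower. Scn4a, the channel of skeletal muscle, had 26 counts in HIOP_GSK, 51 in HIOP and 165 in CTL, and was 3.44-fold lower in HIOP than in CTL (2.5 to 4.81). It was below 2 TPM in all 3 libraries. The 6 skeletal muscle markers matched in the files had 82 counts together in HIOP_GSK, 66 in HIOP and 119 in CTL, none of them was at 0, and their part in the Scn4a result was not tested.

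The sodium beta subunits are small membrane proteins with an immunoglobulin-like outer domain that bind the pore subunit and cell adhesion partners. Scn2b was the most abundant, at 24.58 TPM in HIOP_GSK, 22.85 in HIOP and 51.23 in CTL. It had 291, 309 and 550 counts in the same order and was 1.89-fold lower in HIOP than in CTL (1.64 to 2.18), and in the deposited TPM it passed the limit at a log2 ratio of -1.15. Scn4b, whose product can block the open pore, had 26 counts in HIOP_GSK, 27 in HIOP and 82 in CTL and was 3.23-fold lower (2.07 to 5.19). Scn3b had a log2 ratio of -0.52. The median log2 ratio of the 4 beta genes was -0.94, and 1 of them passed the limit.

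Genes of proteins that anchor or modify sodium channels also had mostly lower counts. Of 19 matched partners (ankyrins, spectrins, adhesion molecules, fibroblast growth factor homologous factors, a syntrophin, a ubiquitin ligase and the sodium leak channel NALCN with its subunits), 18 had a ratio below 1 in HIOP over CTL and the median log2 ratio was -0.70, while 2 were at least 2-fold lower, a share near the 8.04% of all genes. The 2 past the limit encode homologous factors that bind the tail of the pore subunit. Fgf11 had 285 counts in HIOP_GSK, 296 in HIOP and 656 in CTL and was 2.36-fold lower in HIOP than in CTL (2.05 to 2.71), and Fgf13 had 286, 291 and 578 counts and was 2.11-fold lower (1.83 to 2.44). Fgf12 was just inside the limit at 1.97-fold lower (1.72 to 2.27). Nrcam, an adhesion molecule of the initial segment and node, was 1.9-fold lower (1.8 to 2.01), Cntn1 was 1.44-fold lower (1.36 to 1.52) and Ank2 1.18-fold lower (1.16 to 1.2), while Nfasc had 6023 counts in HIOP_GSK, 7419 in HIOP and 6964 in CTL, a log2 ratio of 0.00 in HIOP over CTL.

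**Figure D2:**
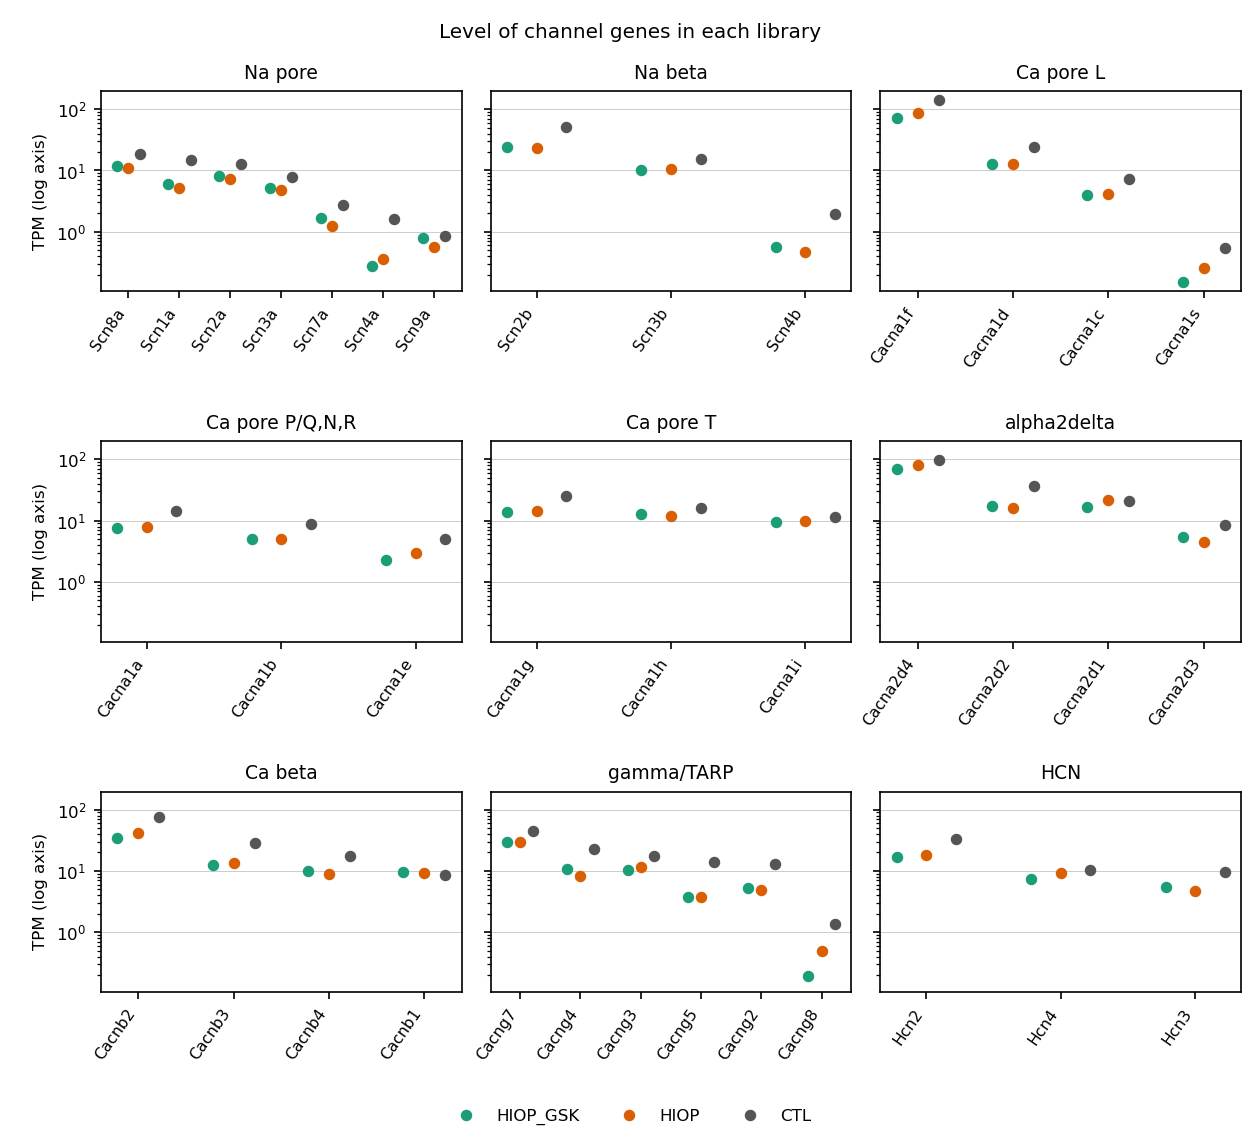
Level of 37 of the 40 channel genes in each library, in TPM on a log axis, in 9 subunit groups (points from left to right within a gene are HIOP_GSK, HIOP and CTL; 1 library each). CTL is the highest point for most genes, and Cacna1f and Cacna2d4 are the highest genes shown.

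The L-type calcium channel gene Cacna1f, encoding the photoreceptor channel Cav1.4, was the most abundant of all 44 genes in each library. Its level was 70.59 TPM in HIOP_GSK, 86.48 in HIOP and 139.55 in CTL. It had 7460 counts in HIOP_GSK, 10366 in HIOP and 13319 in CTL, and was 1.37-fold lower in HIOP than in CTL (1.33 to 1.4). The 3 libraries ranked HIOP_GSK, HIOP, CTL from low to high. The start of the gene is shown because this channel dominates the family. The window, chrX:17568259-17568558 on the minus strand of GRCr8, runs from 250 bases before to 50 after the RefSeq gene start, and capitals mark matches to the Sp1 box GGGCGG on either strand.
Cacna1f: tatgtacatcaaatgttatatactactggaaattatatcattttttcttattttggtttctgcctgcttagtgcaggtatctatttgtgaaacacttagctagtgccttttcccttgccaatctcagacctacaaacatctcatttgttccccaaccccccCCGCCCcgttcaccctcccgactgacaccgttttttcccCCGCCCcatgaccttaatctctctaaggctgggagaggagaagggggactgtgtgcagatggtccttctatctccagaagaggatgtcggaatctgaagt

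The subunits that assemble with Cav1.4 in photoreceptors did not share its ratio. Cacna2d4, encoding the alpha2delta-4 subunit of photoreceptors, had 6021 counts in HIOP_GSK, 7377 in HIOP and 7342 in CTL and was 1.06-fold lower in HIOP than in CTL (1.02 to 1.09). Cacnb2, the cytoplasmic beta subunit of this channel, had 1796, 2334 and 3833 counts and was 1.75-fold lower (1.66 to 1.84). Per count of Cacna1f there were 0.807 counts of Cacna2d4 in HIOP_GSK (0.780 to 0.835), 0.712 in HIOP (0.691 to 0.733) and 0.551 in CTL (0.536 to 0.567). For Cacnb2 the same ratio was 0.241 in HIOP_GSK (0.229 to 0.254), 0.225 in HIOP (0.215 to 0.236) and 0.288 in CTL (0.278 to 0.298). In TPM, Cacna2d4 stood at 0.986 of Cacna1f in HIOP_GSK, 0.951 in HIOP and 0.698 in CTL. The balance of these transcripts thus differed between CTL and both ischemic libraries by more than the counting intervals. In the RefSeq table of GRCr8, a later build than the one used for counting, Cacna2d4 overlaps Adipor2 and Lrtm2. Adipor2 had 933 counts in HIOP_GSK, 1225 in HIOP and 586 in CTL, and Lrtm2 had 344, 387 and 641. Whether reads were counted by strand is not given in the sources used here, and the part of these overlaps in the Cacna2d4 counts was not tested.

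The other L-type genes were lower as well. Cacna1d, encoding Cav1.3, had a log2 ratio of -0.82 in HIOP over CTL, and Cacna1c, encoding Cav1.2 of neurons and vessels, had one of -0.65. Cacna1s, the skeletal muscle channel Cav1.1, had only 9 counts in HIOP_GSK, 23 in HIOP and 46 in CTL. It was 2.13-fold lower in HIOP (1.26 to 3.68), but its log2 ratio was -0.82 with a prior count of 10, within the limit. In the deposited TPM with a pseudocount of 0.5 its log2 ratio was -0.47, also within the limit. Without the pseudocount its TPM ratio was 0.473 (0.26 in HIOP and 0.55 in CTL), past the limit.

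The presynaptic channel genes kept close together. Cacna1a, encoding the P/Q-type channel Cav2.1, had 1153 counts in HIOP_GSK, 1358 in HIOP and 2207 in CTL and was 1.73-fold lower in HIOP than in CTL (1.61 to 1.85). Cacna1b, the N-type channel, and Cacna1e, the R-type channel, had log2 ratios of -0.77 and -0.55. Their shares of the group's TPM hardly differed, with Cacna1a at 50.9% in HIOP_GSK, 49.5% in HIOP and 50.7% in CTL.

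The T-type genes, whose channels open near rest, differed from each other. Cacna1g, encoding Cav3.1, had 1340 counts in HIOP_GSK, 1668 in HIOP and 2577 in CTL and was 1.64-fold lower in HIOP than in CTL (1.54 to 1.75). Cacna1h had a log2 ratio of -0.38 and Cacna1i one of -0.08, with an interval of the fold from 0.872 to 1.03. Cacna1g took 38.4% of the group's TPM in HIOP_GSK, 39.7% in HIOP and 47.9% in CTL.

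The alpha2delta subunits are outer membrane-anchored proteins that raise the number of calcium channels at the surface, and the first and second of them bind gabapentin. This group split. Cacna2d2 had 1065 counts in HIOP_GSK, 1156 in HIOP and 2267 in CTL and was 2.09-fold lower in HIOP than in CTL (1.94 to 2.24), whereas Cacna2d1 had 1234, 1673 and 1485 counts, a ratio of 1.06 (0.987 to 1.14). In CTL, Cacna2d2 was above Cacna2d1 in TPM (37.27 and 20.80), and in HIOP it was below (15.89 and 21.64). In HIOP_GSK the 2 levels were close, at 17.60 and 16.83 TPM. Cacna2d3 had a log2 ratio of -0.92. The start windows of the pair that split are shown to set them side by side. Capitals mark Sp1 box matches, and the windows are chr4:20329813-20330112 on the minus strand and chr8:116950856-116951155 on the plus strand of GRCr8.
Cacna2d1: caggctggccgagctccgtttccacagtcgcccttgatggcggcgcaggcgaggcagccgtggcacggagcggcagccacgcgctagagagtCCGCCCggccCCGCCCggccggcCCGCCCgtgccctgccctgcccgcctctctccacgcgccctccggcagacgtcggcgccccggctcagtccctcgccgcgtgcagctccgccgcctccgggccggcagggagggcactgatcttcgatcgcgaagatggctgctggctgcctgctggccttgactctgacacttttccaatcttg
Cacna2d2: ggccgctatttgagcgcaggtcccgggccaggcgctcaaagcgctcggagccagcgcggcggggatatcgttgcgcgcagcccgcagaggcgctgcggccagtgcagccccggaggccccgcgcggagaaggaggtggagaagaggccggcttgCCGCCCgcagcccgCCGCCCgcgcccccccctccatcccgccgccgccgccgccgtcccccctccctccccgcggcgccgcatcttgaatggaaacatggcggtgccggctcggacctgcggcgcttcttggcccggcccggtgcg

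Both windows are rich in G and C, at 73% for Cacna2d1 and 77% for Cacna2d2, and hold 3 and 2 matches to GGGCGG. RefSeq gives Cacna2d1 other start windows too, which are not printed. Start windows of 300 bases were matched for 28 of the 44 channel genes. On either strand, GGGCGG occurred in those of 15 of the 28, and in 36% of 27457 genes with a window. The core letters TAATCC, read by the photoreceptor factor CRX, occurred in 1 of 28, Cacna1s, against 7.77% of all, and the AP-1 letters TGANTCA in 1 of 28, Scn3a, against 8.04%. The cAMP response element TGACGTCA occurred in 0 of 28, against 2% of all. Matches in the printed windows do not overlap each other, and a match is a run of letters, not a shown binding site.

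Calcium beta subunits bind the pore subunit inside the cell and are needed for its surface delivery. Beside Cacnb2, Cacnb3 had 360 counts in HIOP_GSK, 468 in HIOP and 819 in CTL and was 1.86-fold lower in HIOP than in CTL (1.66 to 2.09), with a log2 ratio of -1.03 in the deposited TPM. Cacnb4 had a log2 ratio of -0.93. Cacnb1 differed from these, with 484 counts in HIOP_GSK, 566 in HIOP and 532 in CTL and a log2 ratio of 0.00. It took 14.4% of the group's TPM in HIOP_GSK, 12.6% in HIOP and 6.57% in CTL. In the GRCr8 table Cacnb1 overlaps Rpl19, which had 592, 612 and 370 counts in the same order, and Cacnb3 overlaps Tuba1c, which had 261, 300 and 15 counts. The part of these overlaps was not tested.

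By its median, the gamma and TARP group was lower in HIOP than the other auxiliary groups were on counts (-1.33 against -0.94 for sodium beta), while in the deposited TPM these medians were -1.13 and -1.12. All 6 compared had intervals below 1 and 4 of the 6 were at least 2-fold lower. Cacng5, a TARP of the second type, had 122 counts in HIOP_GSK, 145 in HIOP and 383 in CTL and was 2.81-fold lower in HIOP than in CTL (2.31 to 3.42). Cacng2, stargazin, which carries AMPA receptors to synapses, had 206, 205 and 515 counts and was 2.67-fold lower (2.27 to 3.16). Cacng4 had 471, 420 and 978 counts and was 2.48-fold lower (2.21 to 2.78). For these 3 genes both ischemic libraries lay far below CTL and closer to each other than to CTL. Cacng8, a TARP of the hippocampus, had 16 counts in HIOP_GSK, 10 in HIOP and 27 in CTL and was 2.87-fold lower in HIOP (1.35 to 6.65). In the deposited TPM its log2 ratio was -0.91 with a pseudocount of 0.5, within the limit. Without the pseudocount its TPM ratio was 0.362 (0.50 in HIOP and 1.38 in CTL), past the limit.

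The remaining TARP genes were less far from CTL. Cacng7, the most abundant, had 817 counts in HIOP_GSK, 888 in HIOP and 1152 in CTL and was 1.38-fold lower in HIOP than in CTL (1.26 to 1.51), and Cacng3 had a log2 ratio of -0.45. There were 6.70 counts of Cacng7 per count of Cacng5 in HIOP_GSK (5.53 to 8.17), 6.12 in HIOP (5.13 to 7.35) and 3.01 in CTL (2.68 to 3.39). Cacng7 took 49.6% of the group's TPM in HIOP_GSK, 50.5% in HIOP and 39.3% in CTL. The window of Cacng5, the TARP gene with the lowest log2 ratio, at chr10:93336618-93336917 on the minus strand of GRCr8, is shown because it holds none of the 4 motifs and so has no capitals.
Cacng5: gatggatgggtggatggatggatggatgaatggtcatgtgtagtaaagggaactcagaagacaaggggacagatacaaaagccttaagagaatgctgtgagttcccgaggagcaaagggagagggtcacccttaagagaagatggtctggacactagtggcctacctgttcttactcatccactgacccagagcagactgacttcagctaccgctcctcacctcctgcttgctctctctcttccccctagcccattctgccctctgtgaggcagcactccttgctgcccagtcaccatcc

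**Figure D3:**
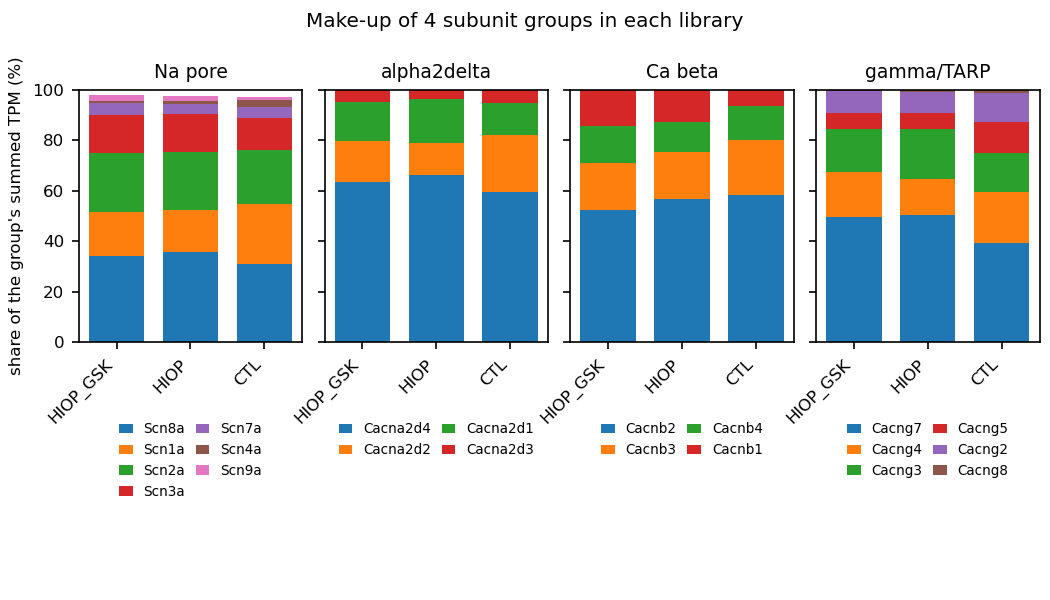
Share of the summed TPM of a subunit group taken by each gene in HIOP_GSK, HIOP and CTL (1 library each) for sodium pore, alpha2delta, calcium beta, and gamma and TARP genes; the gap to 100% is genes not drawn, among them those under 1% in all libraries. Scn1a and Cacna2d2 take smaller shares in HIOP_GSK and HIOP than in CTL, and Cacng7 and Cacnb1 take larger ones.

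AMPA receptor genes, whose products the TARPs accompany, were also lower. Gria3 had 732 counts in HIOP_GSK, 570 in HIOP and 1512 in CTL and was 2.82-fold lower in HIOP than in CTL (2.56 to 3.11). Gria4 was 2.45-fold lower (2.25 to 2.66) and Gria2 2.21-fold lower (2.1 to 2.32). Gria1 was within the limit, with 287 counts in HIOP_GSK, 318 in HIOP and 478 in CTL and a log2 ratio of -0.67. Pex5l, which encodes TRIP8b, the auxiliary subunit of HCN channels, had 149, 180 and 406 counts in the same order and was 2.40-fold lower (2.01 to 2.88). The list of HCN and TARP partners had 9 genes compared, with a median log2 ratio of -1.09 in HIOP over CTL. Of the 9, 5 were at least 2-fold lower, against 8.04% of all genes. Dlg4, the synaptic scaffold PSD-95, stood apart with 8136 counts in HIOP_GSK, 11638 in HIOP and 10599 in CTL, 1.03 times its CTL level in HIOP (1.01 to 1.06).

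The 4 HCN genes had a median log2 ratio of -0.73 in HIOP over CTL. Hcn2, a subunit of many central neurons, had 512 counts in HIOP_GSK, 643 in HIOP and 1041 in CTL and was 1.72-fold lower in HIOP than in CTL (1.56 to 1.903). Hcn3 had 469, 477 and 733 counts in the same order and a log2 ratio of -0.71. Hcn4, the pacemaker subunit of the heart's sinus node, differed from these, with 469 counts in HIOP_GSK, 659 in HIOP and 634 in CTL and a log2 ratio of -0.03 in HIOP over CTL. Hcn2 was at 16.60 TPM in HIOP_GSK, 17.97 in HIOP and 33.48 in CTL, above Hcn4 in each library, at 7.49, 9.37 and 10.40 TPM.

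Of 25 calcium channel partners compared (calcium-binding proteins, active zone tethers, adaptors, inhibitory GTPases and release proteins), 6 were past the 2-fold limit downward in HIOP and 1 upward, and the median log2 ratio was -0.46. Of all genes, 8.04% were past the limit downward and 9% upward. Stac, an adaptor of L-type channels, had 49 counts in HIOP_GSK, 29 in HIOP and 130 in CTL and was 4.77-fold lower in HIOP than in CTL (3.17 to 7.40). Cabp2, a calmodulin-like regulator, had 7, 35 and 84 counts and was 2.55-fold lower (1.7 to 3.9). The active zone tethers Rims1 and Rimbp2 were 2.19-fold (2.01 to 2.38) and 2.1-fold lower (1.85 to 2.38), and Cabp1 and Stac2 were 2.04-fold (1.89 to 2.2) and 2.02-fold lower (1.78 to 2.29). Cabp4, the photoreceptor regulator of Cav1.4, had 2458 counts in HIOP_GSK, 3734 in HIOP and 4885 in CTL and was 1.39-fold lower (1.33 to 1.45). The 1 gene past the limit in the other direction, named after its value was seen, was Gem, a small GTPase that inhibits calcium channels, with 528 counts in HIOP_GSK, 731 in HIOP and 338 in CTL, a ratio of 2.03 (1.78 to 2.32).

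Pore and auxiliary subunits were then set side by side. In HIOP over CTL, auxiliary genes had a median log2 ratio of -0.92 with 6 of 18 at least 2-fold lower, and pore genes had one of -0.74 with 4 of 22. Without the gamma and TARP group, a choice made after seeing the data, the auxiliary median was -0.90 and 2 of 12 were past the limit. Auxiliary ratios ran from -1.62 to 0.08 and pore ratios from -1.74 to -0.03, so the classes overlapped over most of their range. Summed counts gave the opposite order. The 20 auxiliary genes together were at 0.718 of CTL in HIOP (0.704 to 0.732) and the 24 pore genes at 0.657 (0.647 to 0.667), sums in which Cacna2d4 and Cacna1f weigh most. The sodium family gave medians of -0.94 for 4 beta genes and -0.81 for 8 pore genes, and the calcium family -0.91 for 14 auxiliary and -0.69 for 10 pore genes. Genes of 1 class are not replicates, and no test of the difference between classes was made.

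**Figure D4:**
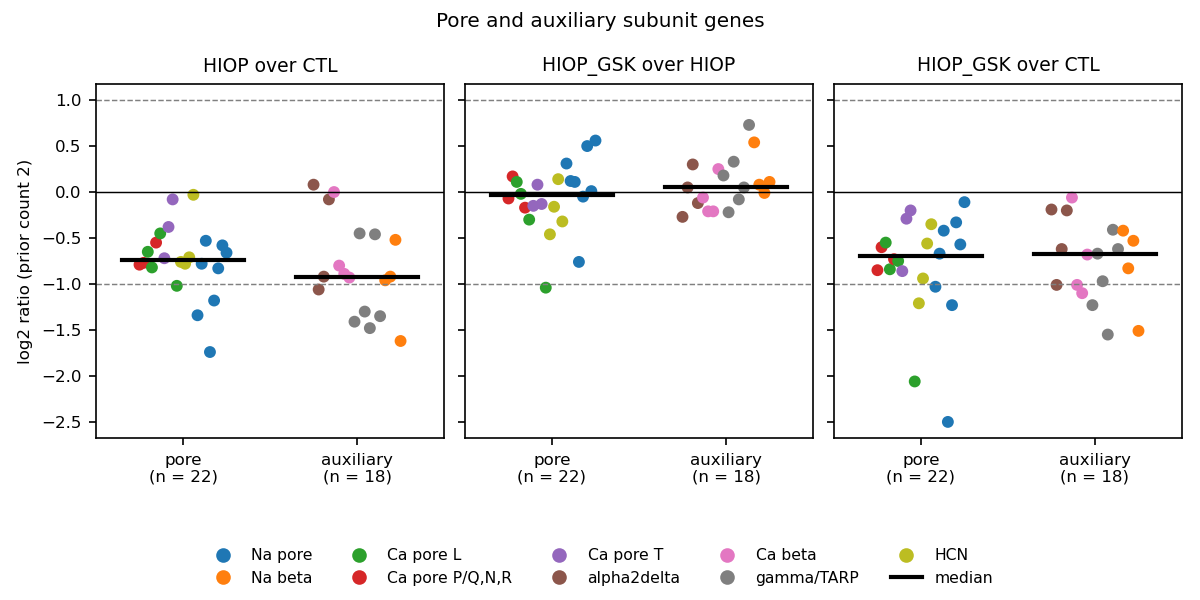
Log2 ratio of each of 22 pore and 18 auxiliary subunit genes (prior count 2) in the 3 comparisons, coloured by subunit group, with the median of each class as a bar and dashed lines at 2-fold. Medians for pore and auxiliary genes are -0.74 and -0.92 for HIOP over CTL. They are -0.04 and 0.05 for HIOP_GSK over HIOP, and -0.70 and -0.67 for HIOP_GSK over CTL.

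The ischemic retina pretreated with the drug was next compared with ischemic retina alone. Channel genes were close to each other in these libraries, with a median log2 ratio of 0.00 in HIOP_GSK over HIOP, 20 of 40 ratios below 1 and 20 above. At the 2-fold limit 1 of 40 was lower, against 1.69% of all genes, and 0 of 40 were higher, against 4.56%. The single gene was Cacna1s with 9 counts in HIOP_GSK and 23 in HIOP, 2.27-fold lower (1.01 to 5.58). Its log2 ratio was -0.23 in the deposited TPM with the pseudocount, and its TPM ratio without the pseudocount was 0.577. The counting interval lay wholly below 1 for 11 of the 40 genes, against 20% of all genes. It lay wholly above 1 for 8 of the 40, against 3130 of all 15543 genes, a share near that of all genes. The deposited TPM gave the same sign as the counts for 35 of the 40.

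The medians of the families lay near 0 in this comparison, and no difference between families was tested. Of 12 sodium channel genes, 9 had a ratio above 1 in HIOP_GSK over HIOP and the median log2 ratio was 0.11. Scn1a was at 1.24 times its HIOP level in HIOP_GSK (1.12 to 1.37), Scn7a at 1.43 (1.13 to 1.79) and Scn9a at 1.48 (1.07 to 2.06). Scn4a went the other way at 1.74-fold lower (1.07 to 2.91), on 26 counts in HIOP_GSK and 51 in HIOP. Its TPM were 0.28 and 0.36, a ratio of 0.778. Of 24 calcium channel genes, 14 had a ratio below 1 and the median was -0.06, with 8 intervals wholly below 1 and 4 wholly above it. Those above were of Cacna1b, Cacng4, Cacna2d3 and Cacnb4, of which Cacng4 was at 1.26 (1.1 to 1.44), Cacna2d3 at 1.24 (1.04 to 1.47) and Cacnb4 at 1.19 (1.06 to 1.34). All of these lay within the 2-fold limit. Sodium channel partners leaned the same way, with 15 of 19 ratios above 1 and a median of 0.07, and Nrcam was at 1.49 times its HIOP level (1.4 to 1.58).

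Genes of photoreceptor channels were lower in HIOP_GSK than in HIOP. Cacna1f was 1.24-fold lower (1.2 to 1.27), Cacnb2 1.16-fold lower (1.09 to 1.23) and Cacna2d4 1.09-fold lower (1.05 to 1.13). Cabp4 was 1.35-fold lower (1.28 to 1.42). Apart from these genes, the calcium channel partner Cabp2 was 4.44-fold lower (1.95 to 11.9) on few counts. Among the HCN genes the median log2 ratio was -0.24, with Hcn4 at 1.25-fold lower (1.11 to 1.41). The 8 rod markers summed to 0.707 of their HIOP level in HIOP_GSK, while ganglion cell markers summed to 1.09 and amacrine cell markers to 1.13 of theirs. The part of these marker shifts in the channel ratios was not tested.

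**Figure D5:**
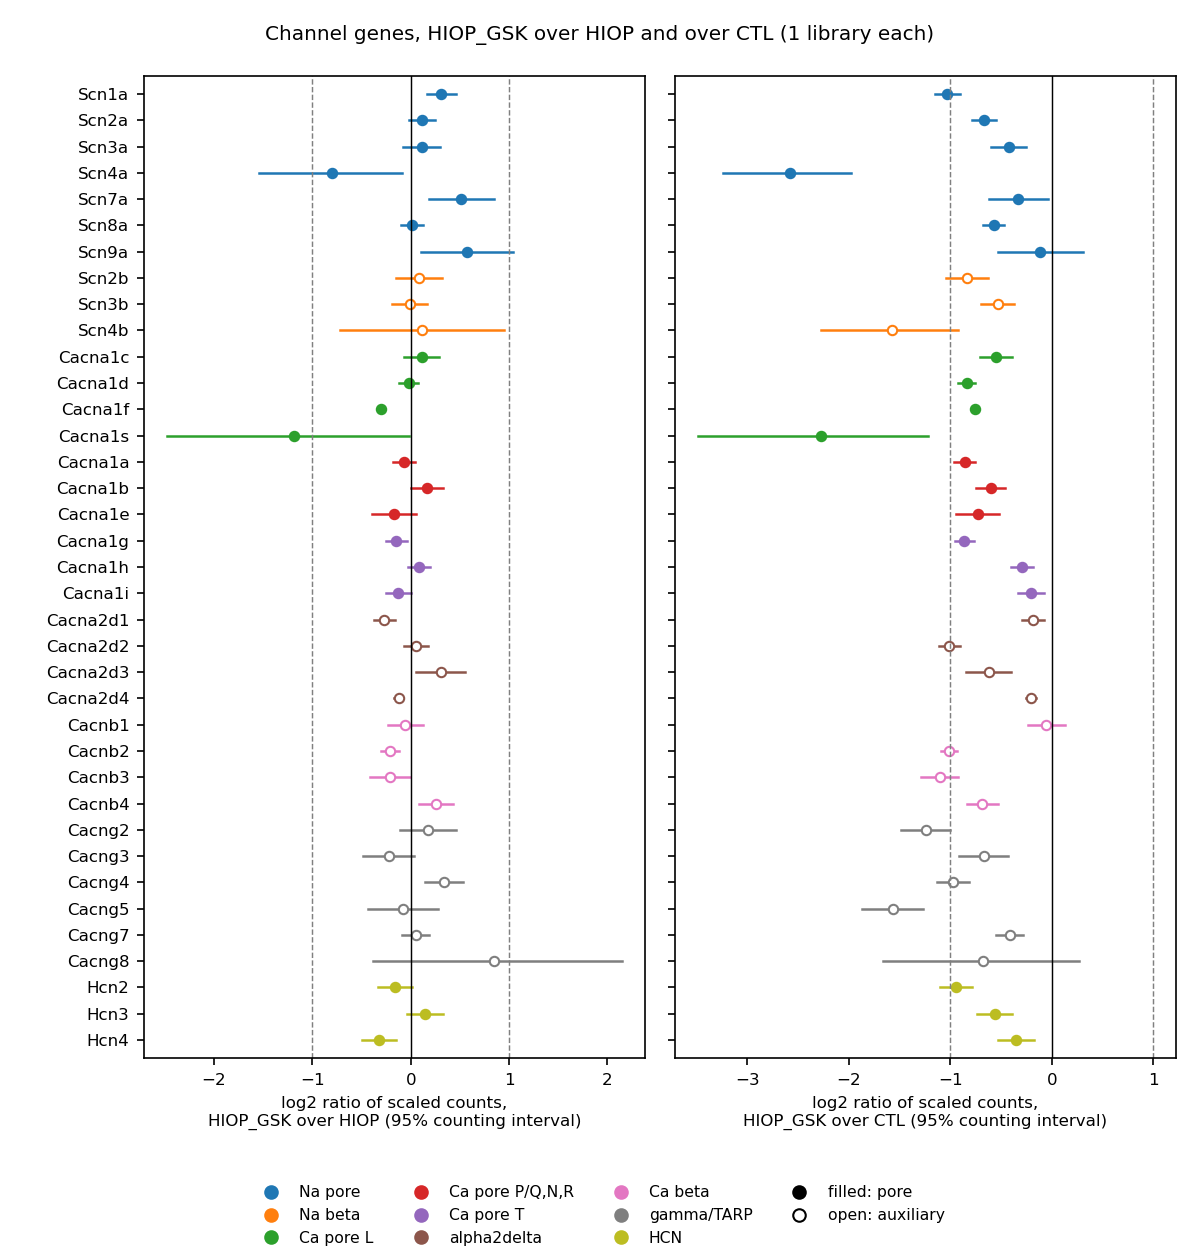
Ratio of scaled counts in HIOP_GSK over HIOP (left) and HIOP_GSK over CTL (right) for 37 of the 40 channel genes, on log2 axes, with the 95% counting interval as a line (filled points, pore; open points, auxiliary; dashed lines, 2-fold). On the left most points lie near 0, and on the right all 37 shown lie below 0.

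Against CTL, the drug-pretreated ischemic retina had lower counts of channel transcripts. All 40 count ratios were below 1, and 39 of the 40 kept that sign in the deposited TPM, the exception being Cacnb1. The median log2 ratio was -0.67, and 37 intervals lay wholly below 1, against 31.7% of all genes. At least 2-fold lower were 11 of 40, against 6.32% of all genes, and 0 of 40 were at least 2-fold higher, against 10.4%. This comparison shares its CTL library with the first and its HIOP_GSK library with the second, so the 3 sets of ratios are not independent of each other. Among the 11 were Scn1a, Scn4a, Scn4b, Cacna1s, Cacna2d2, Cacnb2, Cacnb3, Cacng2 and Cacng5.

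Some genes near the limit lay on different sides of it in HIOP_GSK and in HIOP. Cacnb3 was 2.15-fold lower in HIOP_GSK than in CTL (1.9 to 2.44) and Cacnb2 2.02-fold lower (1.91 to 2.13), each past the limit here and within it in HIOP. Cacng4 was 1.96-fold lower (1.76 to 2.2), just within the limit, and Cacng8 was 1.59-fold lower with an interval that reached across 1 (0.829 to 3.17). Scn1a was 2.04-fold lower (1.88 to 2.22) and Cacna2d2 2.01-fold lower (1.87 to 2.17). Scn4a had a log2 ratio of -2.50 and Cacna1s one of -2.06, the lowest of the 40, at 26 and 9 counts in HIOP_GSK. In the deposited TPM with the pseudocount of 0.5, the log2 ratio of Cacna1s was -0.69, within the limit. Without the pseudocount its TPM ratio was 0.273, past the limit. With the pseudocount, Scn2b, Cacng4 and Cacng8 passed the limit at log2 ratios of -1.04, -1.05 and -1.45. Pore and auxiliary genes had medians of -0.70 and -0.67, with 5 of 22 and 6 of 18 past the limit.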

How the data were processed

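Retinal RNA of 3 libraries, 1 per group, was analysed. Directional libraries were made from 3 µg of RNA after removal of ribosomal RNA, per the labels' protocols. The build Rnor_6.0 and the tools RSEM 1.3.1 and STAR 2.5.4b stand in the submitters' processing notes with no stated role. The deposited counts are whole numbers per Ensembl gene and not normalized, per the file headers and values. The deposited TPM values sum to 1000000 per library and served for levels between genes and as an alternative with a pseudocount of 0.5. Depth per library sets the counting precision, and since PCR copies could not be told from separate molecules, intervals and floors cover counting error only.

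Counts were scaled with TMM factors from edgeR 4.0.16 (R 4.3.3). Genes that reached a CPM of 1 in any library were compared, 15543 in all. For log2 ratios the prior count was 2, and the limit for a call was 2-fold. Folds carry no prior, and their 95% interval is the exact binomial (Clopper-Pearson) one for both counts. The functions were tested on simulated counts. DESeq2 1.42.0 gave size factors only. The members and lists were chosen with earlier results of these data known. Counts in every library and folds are given for each member past 2-fold in any comparison and for the member with the highest mean TPM in each subunit group, and for up to 4 partners per list and comparison with the interval bound farthest from 1. Partners and markers were matched by exact symbol, and a symbol held by more than 1 entry was left out. Some genes that enter the counts and medians are not reported here by name. Sequences are from RefSeq on GRCr8.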

Additional observations from a re-analysis of the deposited data

How the results depend on the processing

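With 1 library per group, no library could be left out. No paired analysis was possible because each group has a single library. Under total counts without TMM, DESeq2 size factors, scaling without mitochondrial and the 20 most abundant genes, the deposited TPM, no filter, a filter at CPM 5 and prior counts of 0.5 and 10, no value of the 20 named genes that passed the limit changed direction. Within the limit, the log2 ratio of Cacng8 in HIOP_GSK over HIOP was 0.73 in counts and -0.54 in the deposited TPM with the pseudocount of 0.5. Without the pseudocount that TPM ratio was 0.38, past the limit. The deposited TPM with the pseudocount moved 20 of the 60 values of the named genes out of the counting interval. Under TPM or a prior count of 10, 14 calls changed, among them those of Cacna1s and Cacng8. Without the pseudocount, the TPM ratios of Cacna1s and Cacng8 in HIOP over CTL were past the limit, at 0.473 and 0.362.

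At a limit of 1.5-fold, 25 of 40 channel genes were lower in HIOP_GSK over CTL, against 2585 of all 15543 genes. In HIOP over CTL, 27 of 40 were lower, against 2733 of all genes. In HIOP_GSK over HIOP, 2 of 40 were lower, against 749 of all genes, and 1 was higher, against 1504. The 1 gene 2-fold lower in HIOP_GSK over HIOP, Cacna1s, became 0 genes with the deposited TPM, with a prior count of 10, with a filter at CPM 5, which leaves it out, and without the 4 genes best known from skeletal muscle, a choice made after seeing the data that also leaves it out. In HIOP_GSK over CTL, the deposited TPM gave a median log2 ratio of -0.79 over the channel genes and of -0.92 over auxiliary genes. The cause of these shifts of the medians under TPM was not tested. In HIOP over CTL, the intervals of Cacna1s and Cacng8, which rest on few counts, reach to both sides of the 2-fold limit. So does that of Cacna2d2 (1.94 to 2.24), on more counts.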

Other observations

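Genes that remove the sodium and calcium brought in by these channels were described as a further list. Of 15 pumps and exchangers, 13 had a ratio below 1 in HIOP over CTL, against 49.6% of all genes, and the median log2 ratio was -0.57. At least 2-fold lower were 2 of the 15, against 8.04% of all genes. Atp2b2, a plasma membrane calcium pump, had 1556 counts in HIOP_GSK, 1474 in HIOP and 3098 in CTL and was 2.23-fold lower in HIOP than in CTL (2.1 to 2.38).

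Within the limit, Slc24a2, a sodium and calcium exchanger of cones and other neurons, was 1.85-fold lower in HIOP than in CTL (1.71 to 2.01), Atp2b3 1.83-fold (1.61 to 2.08) and Atp2b4 1.76-fold lower (1.55 to 2.0). Slc24a1, the exchanger of rod outer segments, had 11057 counts in HIOP_GSK, 17566 in HIOP and 19632 in CTL. It was 1.41-fold lower in HIOP_GSK than in HIOP (1.38 to 1.45), in the same direction as Cacna1f. In that comparison Slc24a2 was at 1.43 times its HIOP level (1.31 to 1.56) and Atp2b4 at 1.34 (1.17 to 1.53), and none of the 15 passed the 2-fold limit.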
